A study of Mus musculus with 4 samples.

Results

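The genes described here encode the nuclear share of the oxidative phosphorylation machinery, chosen by their symbols: those starting with Ndufa, Ndufb, Ndufc, Ndufs, Ndufv, Uqcr, Cox4 to Cox8, Atp5 or Sdh, without -ps, that had at least 50 unique molecular identifiers (UMIs, each marking 1 captured transcript) over 4 libraries. Of 102 listed genes with such symbols, 95 met the minimum, among 31176 genes with a UMI. They comprised 38 genes assigned to complex I, 4 to complex II, 8 to complex III, 16 to complex IV and 17 to complex V, with 8 assembly factors of complex I and 4 of complex II. The 7 genes under the minimum had 0 to 25 UMIs (a second gene listed as Atp5o 0, Cox8c 0, Cox7b2 1, Cox8b 3, Ndufa11b 17, Ndufa4l2 23 and Ndufs6b 25), and the lowest members were Cox4i2 with 65 and Cox6c2 with 94.

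The series profiled nonparenchymal liver cells of 4 mice by droplet-based RNA sequencing from the 3′ end of transcripts, 1 mouse and 1 library per group. All mice were wild-type C57B6 animals aged 18 to 20 weeks. The control received saline, and the other 3 received thioacetamide (TAA), a hepatotoxin that produces liver fibrosis, by intraperitoneal injection over 12 weeks; from week 5, 1 of these also received celecoxib, a cyclooxygenase-2 inhibitor, at 7.5 mg/kg by gavage (TAA+C7.5) and another at 30 mg/kg (TAA+C30). Livers were dissociated with enzymes, red cells were lysed and most hepatocytes were spun out, so hepatocyte values come from the few that remained. With 1 mouse per group no test of a treatment was possible: a difference is one between libraries, the animal and the treatment cannot be told apart, and all intervals are exact 95% intervals that cover counting error only.

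Oxidative phosphorylation takes place in the inner mitochondrial membrane. Complexes I (NADH dehydrogenase) and II (succinate dehydrogenase) pass electrons through ubiquinone to complex III (cytochrome bc1) and on to complex IV (cytochrome c oxidase), and complex V (ATP synthase) uses the resulting proton gradient to make ATP. Complex II is encoded wholly in the nucleus, while the other complexes combine nuclear subunits with subunits of the mitochondrial genome. In the liver, hepatocytes are rich in mitochondria, and mature neutrophils are known for few mitochondria and a reliance on glycolysis.

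Sequences upstream of 4 members are shown because the 3 Atp5g genes encode the same mature protein, the c subunit of the ATP synthase ring, yet differed in level and between libraries, and because Cox6a1 is the widely expressed counterpart of the most class-restricted member, Cox6a2. The stretches are from RefSeq on GRCm38.p6, minus strand, written 5′ to 3′ from 250 bases before the RefSeq start up to the first annotated exon of the gene. The Atp5g2 stretch lies in an intron of a longer annotated transcript of that gene, and the other 3 lie outside their genes. Capitals mark bases that match a searched motif.
Atp5g1, chr11:96075671-96075881: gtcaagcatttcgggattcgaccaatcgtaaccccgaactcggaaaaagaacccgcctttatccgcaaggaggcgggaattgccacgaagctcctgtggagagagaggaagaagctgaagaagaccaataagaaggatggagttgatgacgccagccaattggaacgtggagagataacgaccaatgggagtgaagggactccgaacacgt
Atp5g2, chr15:102671128-102671297: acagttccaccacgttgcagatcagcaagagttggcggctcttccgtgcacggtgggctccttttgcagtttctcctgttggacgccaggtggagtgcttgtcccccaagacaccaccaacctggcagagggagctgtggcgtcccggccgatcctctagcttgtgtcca
Atp5g3, chr2:73911327-73911576: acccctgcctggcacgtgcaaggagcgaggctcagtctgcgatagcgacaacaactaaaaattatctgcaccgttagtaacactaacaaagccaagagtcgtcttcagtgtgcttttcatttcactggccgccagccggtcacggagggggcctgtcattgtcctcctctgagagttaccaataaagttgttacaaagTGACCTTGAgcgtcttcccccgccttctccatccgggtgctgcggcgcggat
Cox6a1, chr5:115348982-115349208: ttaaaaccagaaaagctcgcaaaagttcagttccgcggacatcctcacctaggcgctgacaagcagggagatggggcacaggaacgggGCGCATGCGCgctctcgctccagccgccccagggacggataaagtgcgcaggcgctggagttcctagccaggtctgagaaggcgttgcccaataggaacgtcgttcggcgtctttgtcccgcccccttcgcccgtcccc
The 250 bases before the start were searched on both strands for 4 motifs: the NRF1 core GCGCATGC, the ETS core CCGGAAG, the YY1 core AAGATGGC and the ERR half-site TCAAGGTCA. NRF1, ETS-family factors (such as GABP), YY1 and ERRα are known regulators of nuclear genes for mitochondrial proteins. An entry was found for 76 of the 95 members. The NRF1 core was in 9 of the 76 (11.8%) and in 2.56% of 27025 genes with an entry, and the ETS core was in 16 (21.1%) and in 7.83%. The YY1 core was in 1 member (1.32%, against 1.83%) and the ERR half-site in 1 (1.32%, against 0.422%). Atp5g3 held the ERR half-site at −52 on the reverse strand. Cox6a1 held an NRF1 core at −162, seen on both strands because the letters nearly read the same in reverse, and an ETS core at −16, past the printed stretch. Atp5g2 held an NRF1 core at −42, also past its printed stretch, and Atp5g1 held none of the 4 motifs. A match describes the letters only and says nothing about binding.

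The deposited tables held 26603317, 48419305, 17888247 and 27555592 UMIs for the control, the TAA library and the TAA+C7.5 and TAA+C30 libraries, the order used for every set of 4 values below, and 5668, 6444, 5957 and 6064 cells were kept with medians of 3363.5, 4553, 1971 and 3101.5 UMIs. Cells were clustered without the 95 members and the mitochondrial genes, and the resulting classes are named after marker genes, so each name means cells that resemble the type. Any pair of libraries shared between 7 and 13 cell barcodes. Of the control barcodes with enough genes, 10.5% exceeded 20% mitochondrial UMIs and were removed, against 2.88%, 0.393% and 0.755% in the other libraries. The TAA+C7.5 library stood apart in a mitochondrial gene: in B cells mt-Nd3 (chromosome M, 9459 to 9806), a complex I subunit of the mitochondrial genome, was at 2326, 1812, 1.21 and 1068 counts per 1000000 UMIs of the class (CPM). Gm28438 (chr1:24612775-24613119), a pseudogene, was at 1.03, 1.2, 741 and 0.653 CPM in the same cells. Sums over mitochondrial genes in that library are therefore also given without mt-Nd3.

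Among classes with at least 50 cells in a library, hepatocytes devoted the largest share of their transcripts to the members, and neutrophils the smallest. Members took 4.55% of hepatocyte UMIs in control and 4.09% in TAA. In neutrophils they took 0.668%, 0.741%, 0.657% and 0.741%, the lowest of these classes in each of the 4 libraries. Cholangiocytes, the epithelial cells of bile ducts, had 2.07%, 2.13%, 2.08% and 2.49%. Myeloid progenitors had 1.88% in TAA and 2.36% in TAA+C30. Plasmacytoid dendritic cells had 1.62%, 1.87%, 1.77% and 1.92%, natural killer (NK) cells or ILC1 1.46%, 1.67%, 1.47% and 1.63%, and conventional dendritic cells 1.29%, 1.57%, 1.5% and 1.68%. Endothelial cells had 1.21% in control, 1.26% in TAA and 1.39% in TAA+C7.5. Among lymphocytes T cells had 1.16%, 1.5%, 1.34% and 1.51%, and B cells had 0.928%, 1.19%, 1.10% and 1.17%. Kupffer cells, the resident liver macrophages, had 0.991% in control and 1.40% in TAA, at median depths of 1403 and 10108 UMIs per cell.

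The place of plasma cells in this order depended on what the share was taken of. These cells fill their transcriptome with immunoglobulin RNA, and members took 1.19% of their UMIs in TAA+C7.5 and 1.11% in TAA+C30. Of the UMIs left after mitochondrial, ribosomal protein, haemoglobin and immunoglobulin genes were removed, members took 3.0% and 3.12%, in both libraries the highest of any class that reached 50 cells, which hepatocytes (29 and 20 cells) did not, while neutrophils remained lowest in all 4 libraries at 0.74%, 0.78%, 0.69% and 0.78%. Hepatocytes had 5.31% and 4.83% on that scale. In the control library the 13 subunits of the mitochondrial genome ran differently across classes from the nuclear members. They took 6.07% of UMIs in control Kupffer cells, 4.04% in control B cells and 3.55% in control neutrophils. In TAA, TAA+C7.5 and TAA+C30 neutrophils were lowest for these subunits too, at 0.472%, 0.615% and 0.282%. Kupffer cells had 2.25% in TAA.

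**Figure D1:**
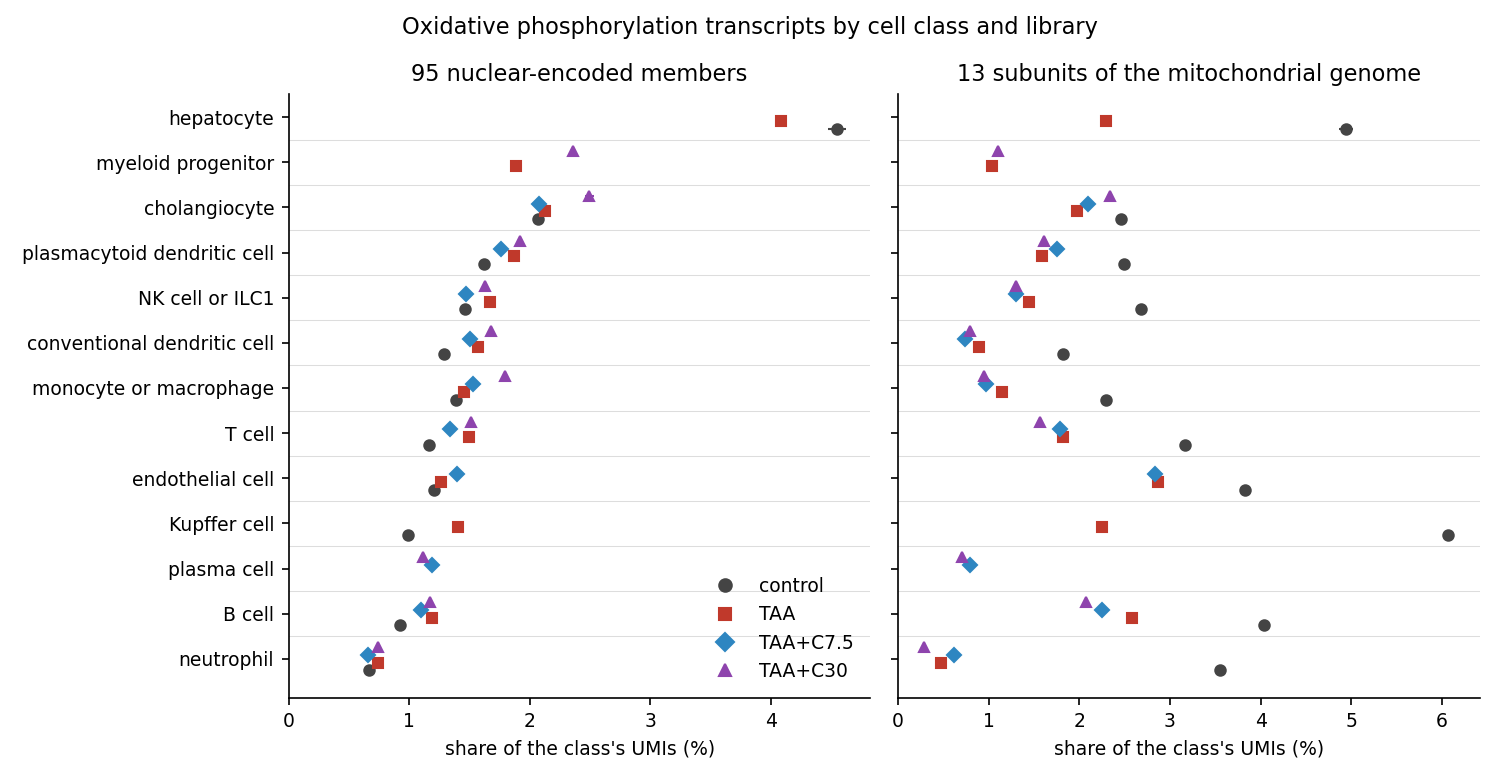
Share of each cell class's UMIs (%, horizontal axis) taken by the 95 nuclear-encoded members (left) and by the 13 mitochondrial-genome subunits (right), 1 point per class and library with its exact 95% counting interval, for classes with at least 50 cells in the library. Hepatocytes stand to the right of the other classes in the left panel and neutrophils to the left, and the control points lie to the right of the others in the right panel.

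Within the members the balance between complexes was broadly alike, with some differences between classes. Over all classes and libraries with enough cells, complex I supplied 26.5% to 37.8% of the members' UMIs (median 28.4%), complex IV 22.5% to 32.7% (28.4%), complex V 24.3% to 30.3% (27.4%), complex III 9.52% to 14.3% (10.9%) and complex II 1.60% to 3.84% (2.05%). Assembly factors supplied 0.673% to 1.28% for complex I and 0.334% to 1.43% for complex II. Kupffer cells were highest for complex II, at 3.84% in control and 3.18% in TAA. Cholangiocytes took 34.5%, 33.2%, 33.3% and 33.45% of the members' UMIs from complex I. Plasma cells marked the upper end for complex I, with 37.8% in both libraries where they were numerous enough, and Ndufa4 and Ndufa1 stood out there. Ndufa1, a small membrane-arm subunit of complex I, was at 365 and 429 CPM in plasma cells of TAA+C7.5 and TAA+C30 and at 69.9 and 93.4 CPM in B cells of the same libraries. Ndufa1 was singled out after its values were seen.

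The leading complex I members were Ndufa4 and Ndufa13. UMIs count transcripts rather than fragments, so levels were not divided by transcript length. Ndufa4, placed in complex I by its symbol but known to associate with complex IV, was at 1789 and 1651 CPM in control and TAA hepatocytes, 869, 762, 665 and 783 CPM in cholangiocytes, and 72.8, 62.0, 76.4 and 76.2 CPM in neutrophils. In plasma cells Ndufa4 was at 840 and 584 CPM. Ndufa13, which is also known as the cell death regulator GRIM-19, spanned a narrower range, from 72.8 CPM in control Kupffer cells to 496 CPM in cholangiocytes of TAA+C30. Of the complex I assembly factors Ndufaf8 was the highest on average, at 15.4 to 141 CPM.

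In complex II, the flavoprotein subunit Sdha was at 354 and 186 CPM in hepatocytes of control and TAA and at 112, 103, 119 and 96.7 CPM in B cells. Sdhb, the iron-sulphur subunit, was at 276 and 304 CPM in those hepatocytes and at 45.3, 59.1, 54.2 and 58.8 CPM in B cells. Its assembly factor Sdhaf1, which helps to insert iron-sulphur clusters into Sdhb, departed from the usual order of classes: it was highest in B cells, at 39.8, 66.1, 79.7 and 105 CPM, and only 17.7 and 22.5 CPM in hepatocytes.

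Complex III was led by Uqcrh, the hinge protein, and Uqcrq, a small structural subunit. Uqcrq was at 1768 and 1416 CPM in hepatocytes and at 97.9, 131, 90.6 and 120 CPM in B cells. Uqcrh varied much less, from 212 CPM in neutrophils of TAA+C7.5 to 990 CPM in control hepatocytes. The leading members of complex IV were Cox4i1 and Cox8a, structural subunits that support the catalytic core: Cox4i1 ran from 345 CPM in control neutrophils to 1347 CPM in control hepatocytes. Cox8a was at 548, 655, 531 and 514 CPM in neutrophils, against 406, 549, 500 and 575 CPM in B cells, so neutrophils were above B cells in control, TAA and TAA+C7.5 and below them in TAA+C30. In complex V, Atp5e, the small epsilon subunit of the catalytic head, ran from 181 CPM in control Kupffer cells to 1319 CPM in control hepatocytes, and Atp5h, a stalk subunit, from 180 CPM in TAA neutrophils to 969 CPM in control hepatocytes.

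Cox6a2 marked a single class. Cox6a2 (chr7:128205435-128206387), the isoform of cytochrome c oxidase subunit 6A best known from heart and skeletal muscle, was at 1125, 1162, 1061 and 1153 CPM in plasmacytoid dendritic cells. Elsewhere it reached at most 11.2 CPM, from 5 UMIs in control NK cells or ILC1, and in conventional dendritic cells it was at 3.20, 4.58, 9.64 and 5.98 CPM. Cox6a1 (chr5:115345642-115348981), the isoform found in most tissues, was present in the same plasmacytoid dendritic cells at 272, 254, 206 and 256 CPM. Cox6a2 thus supplied 80.5%, 82.1%, 83.8% and 81.8% of the Cox6a UMIs of that class. The 4 libraries differed little in either value.

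Other alternative isoforms of complex IV were scarce. Cox7a1, also known from muscle, was at 70.5, 62.9, 22.4 and 78.4 CPM in cholangiocytes and at 28.3 and 9.0 CPM in hepatocytes (8 and 6 UMIs), and at most 5.57 CPM elsewhere. Cox7a2, its counterpart, was at 389, 382, 373 and 499 CPM in cholangiocytes. Cox6b2, known from testis, was at 22.4 and 22.8 CPM in myeloid progenitors of TAA and TAA+C30 and, among conventional dendritic cells, at 10.7, 12.3, 6.75 and 14.1 CPM. Cholangiocytes had 13.6, 11.4, 6.51 and 18.9 CPM of Cox6b2 and TAA hepatocytes 22.5 CPM (15 UMIs), while Cox6b1 was at 165 to 913 CPM over all classes. Cox4i2, a form known to respond to oxygen, had its highest level in plasma cells, at 3.06 CPM (4 UMIs) in TAA+C7.5 and 16 CPM (16 UMIs) in TAA+C30. Cox7a2l, which helps to join complexes III and IV into supercomplexes, was at 88.0 to 550 CPM. Cox6c2 (at most 7.50 CPM) and Ndufb4c (at most 21.0 CPM) are annotated as processed pseudogenes, near-copies of Cox6c (129 to 1301 CPM) and Ndufb4 (4.71 to 70.7 CPM), so how reads were divided within each pair is uncertain.

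The 3 genes for the c subunit differed in level and in how they varied. Atp5g1 (chr11:96068852-96075670) and Atp5g3 (chr2:73908447-73911326) each reached 1015 CPM in control hepatocytes, while Atp5g2 (chr15:102662864-102672352) was at most 35.6 CPM. Atp5g1 supplied 31.2%, 45.3%, 43.7% and 45.6% of the Atp5g UMIs of T cells and 28.1%, 43.8%, 40.1% and 44.6% of those of NK cells or ILC1, so the control library was lower than the 3 TAA libraries. In cholangiocytes the same share was 42.1%, 46.5%, 44.5% and 42.6%. Atp5g2 separated the celecoxib libraries from the others in several classes: it was at 12.4, 10.4, 26.0 and 24.6 CPM in T cells and at 11.3, 8.22, 25 and 21.5 CPM in monocytes or macrophages. In plasma cells Atp5g2 was at 22.2 CPM in TAA+C7.5 and 8.0 CPM in TAA+C30, and in neutrophils it was at 2.80, 1.70, 4.93 and 2.56 CPM, too few UMIs (2 to 8) to show such a difference. Atp5g3 was at 199, 190, 180 and 179 CPM in T cells.

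**Figure D2:**
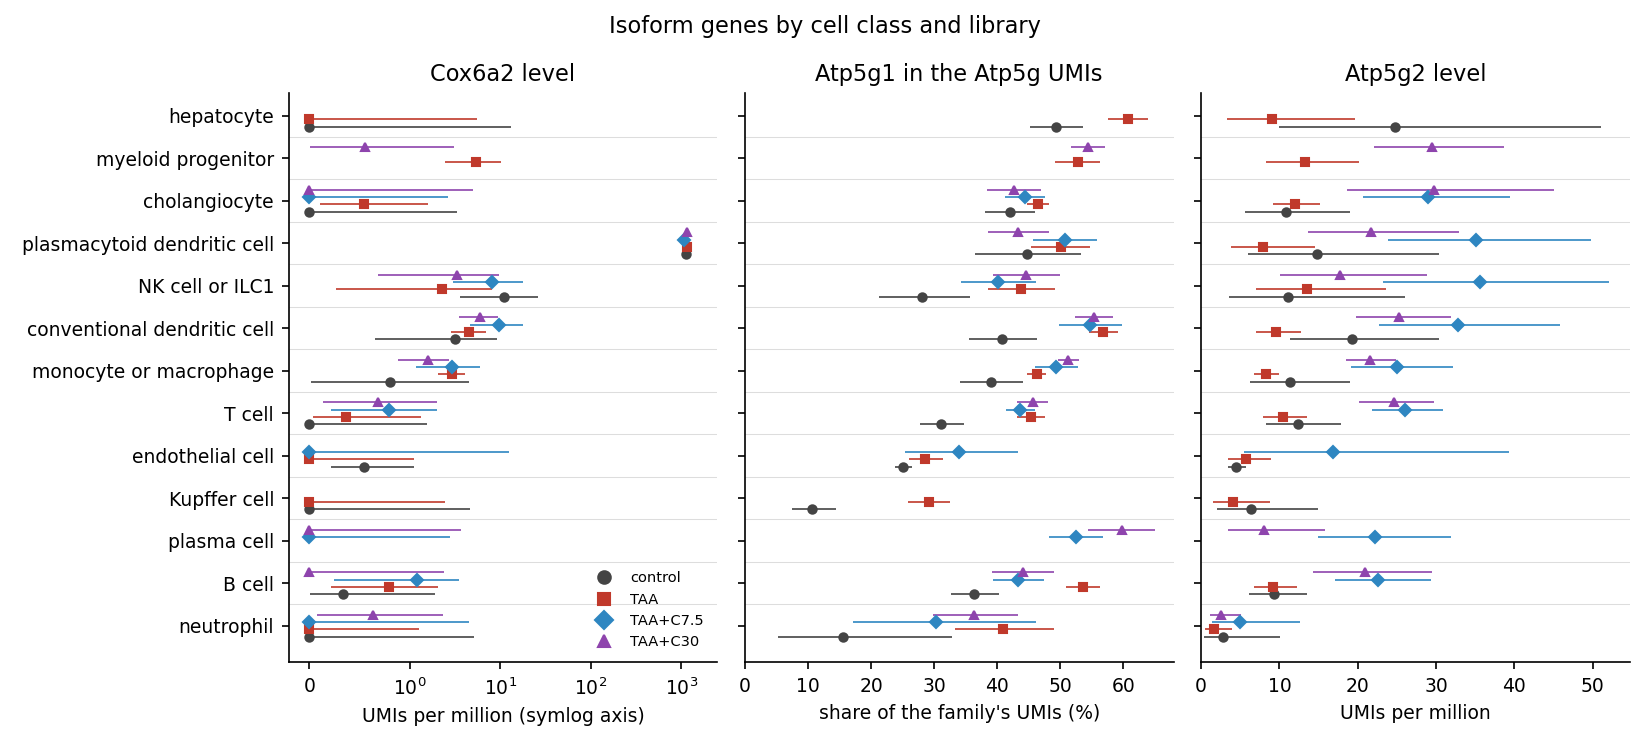
Level of Cox6a2 (left, CPM, symmetric log axis), share of Atp5g UMIs from Atp5g1 (middle, %) and level of Atp5g2 (right, CPM), 1 point per class and library with its exact 95% counting interval. Cox6a2 lies above 1000 CPM in plasmacytoid dendritic cells only, and in T cells and monocytes or macrophages the 2 celecoxib libraries lie to the right for Atp5g2.

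Libraries were compared in the 5 classes with at least 100 cells in each library: B cells, NK cells or ILC1, T cells, monocytes or macrophages, and neutrophils. A gene counted as higher or lower when it differed at least 1.5-fold after 10 CPM was added to both levels, among genes with at least 50 UMIs in the 2 libraries together, and fold changes are on this scale, which understates those of low genes, unless given as a ratio of CPM. The share of all tested genes past the same limit is given beside each count of a class. Of the 95 members, 69 had enough UMIs in all 15 combinations of class and comparison, 23 in some and 3 (Cox4i2, Cox6c2 and Cox7a1) in none. Both celecoxib libraries were compared with the same TAA library, so values that were unusual in it enter both comparisons.

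In TAA against control, among the classes compared, members were more abundant in B and T cells and, by less, in NK cells or ILC1 and neutrophils. Most single genes moved by less than 1.5-fold. In T cells 75 of 85 members tested had a log2 ratio above 0, with a median of 0.34 against −0.09 for all genes tested, and the summed members made up 1.29 times the share in control (1.27 to 1.30). In B cells 76 of 86 were above 0, with medians of 0.33 for members and −0.09 for all genes, and the ratio of sums was 1.28 (1.26 to 1.30). In NK cells or ILC1 52 of 75 were above 0, the medians were 0.16 and −0.11, and the ratio of sums was 1.14 (1.11 to 1.18). Monocytes or macrophages had 51 of 88 above 0, medians of 0.06 and −0.07 and a ratio of sums of 1.04 (1.03 to 1.06), and neutrophils 53 of 73, medians of 0.18 and −0.04 and a ratio of 1.11 (1.07 to 1.14).

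Few members passed the 1.5-fold limit. In B cells 7 of 86 members were higher and 0 lower, against 2.89% higher and 7.12% lower of all genes tested. In T cells 7 of 85 were higher and 0 lower, against 3.07% and 7.24%. In NK cells or ILC1 7 of 75 were higher and 0 lower, against 9.03% and 15.7%. In monocytes or macrophages 4 of 88 were higher and 3 lower, against 8.46% and 10.4%, and in neutrophils 4 of 73 were higher and 1 lower, against 8.69% and 9.86%. The share of members past the limit upwards was above that of all genes in B and T cells, close to it in NK cells or ILC1 and below it in the other 2 classes. With the same weight for each cluster shared by the libraries, only 2 of 84 members were higher in T cells, against 2.76% of all genes. In monocytes or macrophages 0 of 88 were, against 4.68%. A trimmed-mean scaling sets the bulk of genes level between libraries. In this comparison it would add 0.16 (B cells) to 0.24 (NK cells or ILC1) to the log2 of every ratio of CPM. The shift would be less after 10 CPM is added. The 29 higher and 4 lower pairs of member and class would become 86 and 1. Of all genes, 5.88% would then be higher in B cells, 16.9% in NK cells or ILC1 and 6.71% in T cells. Monocytes or macrophages would have 13.3% and neutrophils 14.3%.

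In B and T cells the ratios of complexes I, III, IV and V were alike and that of complex II was nearer to 1. In T cells the ratio of sums was 1.31 for complex I, 1.29 for III, 1.31 for IV and 1.27 for V, but 1.09 (0.986 to 1.21) for complex II. B cells had 1.30, 1.25, 1.30 and 1.27, with 1.04 (0.947 to 1.15) for complex II. In NK cells or ILC1 complexes III, IV and V had 1.18 each, complex I 1.08 (1.03 to 1.14) and complex II 0.945 (0.765 to 1.17). Within clusters the ratio of all members was above 1 in 2 of 2 B cell clusters (1.28 in both), 4 of 4 T cell clusters (1.11 to 1.28) and 2 of 2 NK or ILC1 clusters (1.13 to 1.16). It was above 1 in 2 of 3 monocyte or macrophage clusters (0.891 to 1.19) and in 1 of 2 neutrophil clusters (0.935 to 1.18).

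**Figure D3:**
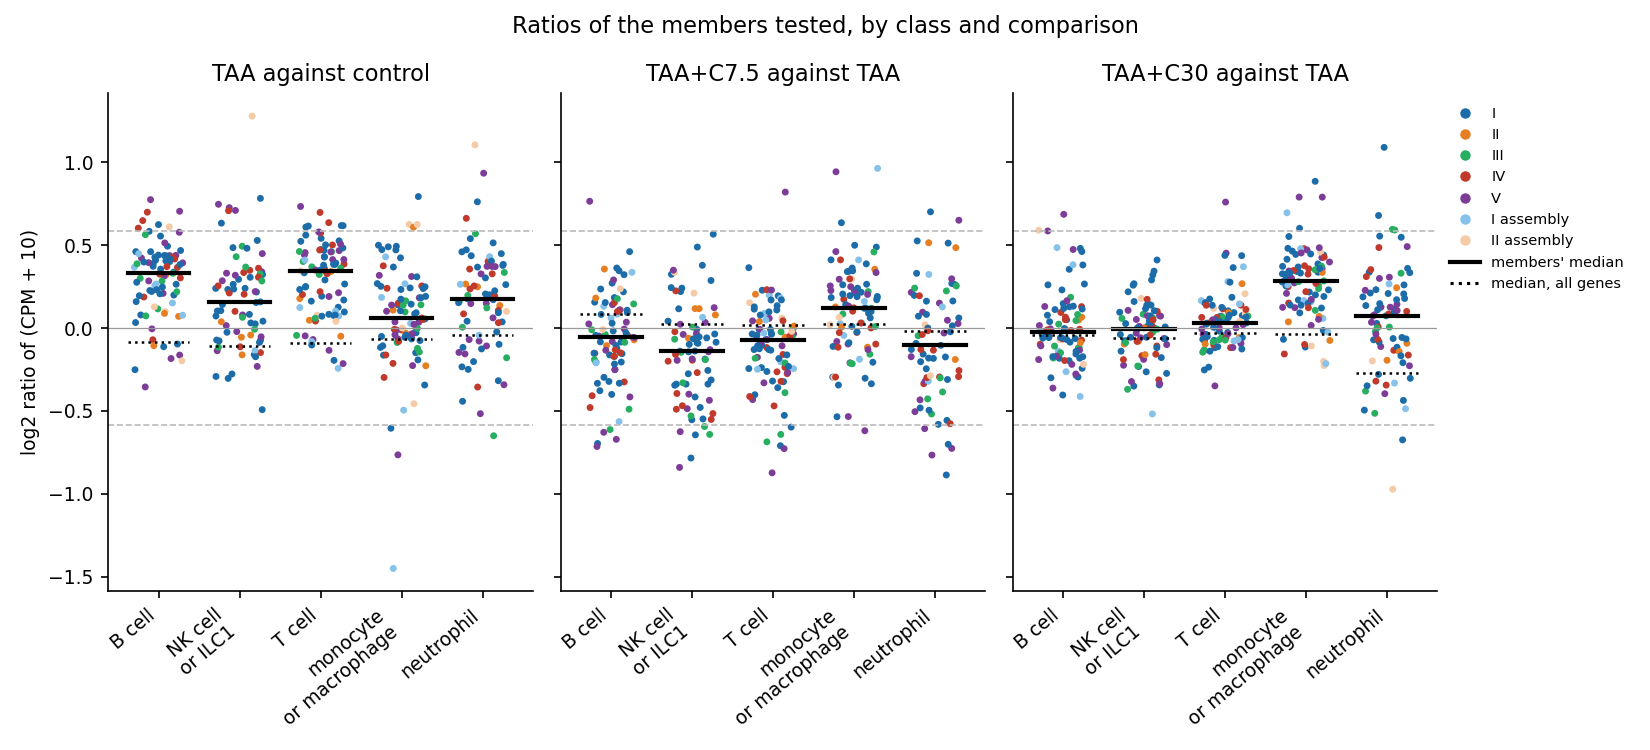
Log2 ratio of (CPM + 10) of every member tested, 1 point per member, coloured by complex, in 5 classes and 3 comparisons; solid bars are the members' medians, dotted bars the medians of all genes tested, and dashed lines the 1.5-fold limits. In TAA against control the members' medians in B and T cells stand at 0.33 and 0.34, and in TAA+C30 against TAA that of monocytes or macrophages stands at 0.28.

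Atp5g1 was higher in TAA in 4 of the 5 classes. It was at 80.4, 145, 106 and 118 CPM in B cells, where the ratio of TAA to control was 1.80 (1.55 to 2.09), and at 95.8, 166, 160 and 171 CPM in T cells, where it was 1.73 (1.49 to 2.01). In NK cells or ILC1 Atp5g1 was at 100, 173, 151 and 174 CPM, and in neutrophils at 7.0, 22.5, 16 and 24.3 CPM, with only 5 control UMIs. In all 4 classes the control library was lowest. Monocytes or macrophages had 119, 151, 176 and 215 CPM for Atp5g1, under the limit in TAA against control.

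Cox5b and Sdhaf1 were each higher in TAA in 3 classes. Cox5b (chr1:36691449-36693681), a zinc-binding subunit of complex IV, was at 118, 197, 177 and 217 CPM in B cells and at 155, 257, 236 and 284 CPM in T cells. In neutrophils Cox5b was at 130, 212, 171 and 192 CPM, again lowest in control. Sdhaf1 (chr7:30321406-30323895) was at 17.8, 57.5, 75.3 and 66.5 CPM in NK cells or ILC1, a ratio of TAA to control of 3.22 (1.52 to 7.87). In neutrophils Sdhaf1 was at 7.0, 26.6, 27.1 and 8.65 CPM, a ratio of 3.79 (1.56 to 12.0) that rests on 5 control UMIs. With the same weight for each cluster shared by the libraries, the log2 ratios of Sdhaf1 in B cells (0.43), Cox5b in T cells (0.54) and in neutrophils (0.49), and Atp5g1 in neutrophils (0.53) stood within the 1.5-fold limit. The other members higher in lymphocytes of TAA were Atp5d, Cox5a, Cox7b and Ndufa7 in B cells, Atp5d, Atp5o, Cox7a2l, Ndufc2 and Ndufs8 in NK cells or ILC1, and Cox7b, Ndufb6, Ndufc1, Ndufs8 and Ndufv2 in T cells. Their largest ratio was 1.85 (1.17 to 3.05), for Ndufc2. With the same cluster weights 6 of the 7 T cell calls, all but Atp5g1, fell inside the limit, as did Ndufa7 in B cells and Ndufs8 in NK cells or ILC1.

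Lower members were found outside the lymphocytes. Ndufaf7 (chr17:78937136-78948052), a methyltransferase that acts on a complex I subunit during assembly, was at 67.1, 18.2, 45.0 and 35.7 CPM in monocytes or macrophages, and the ratio of TAA to control was 0.272 (0.211 to 0.353). Atp5l, the g subunit of the ATP synthase membrane part, was at 163, 92.0, 115 and 166 CPM there. Ndufb4, a membrane-arm subunit of complex I, was at 21.8, 10.9, 19.6 and 28.7 CPM in the same class. The log2 ratio of Ndufb4, −0.60, lay near the limit. It fell inside the limit under 3 of 10 alternatives, to −0.48 at the weakest. For all 3 the TAA library was the lowest of the 4. The higher members of that class were Sdhb at 67.1, 108, 108 and 113 CPM, Ndufa5 at 38, 73.2, 55.9 and 66.8 CPM, Sdhaf4, and Sdhaf3, which had a ratio of 4.89 (1.32 to 41.0) from 2 control UMIs. With the same cluster weights these 4 calls and that of Atp5l fell inside the limit. In neutrophils Uqcrc1, a core protein of complex III, was lower, at 42.0, 23.2, 29.6 and 31.7 CPM, and Ndufs4, an accessory subunit of complex I, was higher, at 18.2, 37.8, 67.7 and 60.2 CPM. The lowest log2 ratios in the lymphocyte classes were within the limit, at −0.35 for Atp5l in B cells, −0.49 for Ndufa12 in NK cells or ILC1 and −0.24 for Ndufaf4 in T cells.

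The subunits of the mitochondrial genome went the other way from the nuclear members in TAA against control. Of those tested, 7 of 13 were lower in B cells, 7 of 10 in NK cells or ILC1, 10 of 13 in T cells, 9 of 13 in monocytes or macrophages and 10 of 10 in neutrophils, and none was higher. The median log2 ratio was −0.60, −0.81, −0.67, −0.83 and −2.70 in that order. Neutrophils took 3.55%, 0.472%, 0.615% and 0.282% of their UMIs from these 13 genes, so control stood far above the rest, and the ratio of nuclear to mitochondrial UMIs was 0.188, 1.57, 1.07 and 2.63. The control library was also the one with the most barcodes over the mitochondrial limit.

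Other values also differed between the 2 libraries, and their part in these results was not tested. Genes that respond to tissue dissociation were lower in TAA for 10 of 18 in B cells, 10 of 19 in T cells, and 6 each in the other 3 classes, and higher for 1 in each lymphocyte class, 2 in neutrophils and 3 in monocytes or macrophages. RNA of hepatocyte markers was also carried by other classes. The 14 markers summed to 379, 108, 50.9 and 35.9 CPM in B cells, with 0, 0, 4 and 4 of them at 0. T cells had 319, 134, 72.6 and 90.7 CPM, with 0, 1, 0 and 4 at 0. NK cells or ILC1 had 326, 126, 107 and 91.9 CPM. The sums were higher in monocytes or macrophages, at 744, 592, 715 and 891 CPM, and in neutrophils, at 1423, 1353, 1679 and 1771 CPM. Cytosolic ribosomal protein genes, which are unrelated to mitochondria, were higher for 12 of 90 in B cells (median 0.38) and 50 of 84 in NK cells or ILC1 (0.64), with 2 of 90 in T cells (0.29), 0 of 95 in monocytes or macrophages (0.02) and 2 of 87 in neutrophils (−0.11). Mitochondrial ribosomal protein genes had medians of 0.29, 0.18, 0.18, 0.08 and 0.27 in B cells, NK cells or ILC1, T cells, monocytes or macrophages and neutrophils. The enzymes of the tricarboxylic acid cycle had medians between 0.00 and 0.10, with 1 gene higher and 1 lower past the limit in all 5 classes together.

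In TAA+C7.5 against TAA, members were somewhat less abundant in lymphocytes, and the neutrophil value varied with the processing. The ratio of sums was 0.895 (0.885 to 0.904) in T cells, 0.924 (0.910 to 0.937) in B cells, 0.880 (0.858 to 0.902) in NK cells or ILC1 and 0.887 (0.861 to 0.914) in neutrophils. The medians of the members' log2 ratios were −0.07, −0.06, −0.14 and −0.10 in these classes, with 0.02, 0.09, 0.03 and −0.02 for all genes tested. In neutrophils the median was 0.01 with the same weight for each cluster and 0.01 with doublet calls kept, and the ratio of sums was 0.878, 0.984 and 1.05 in the 3 clusters. Monocytes or macrophages had a ratio of sums of 1.06 (1.04 to 1.07), with 61 of 88 members above 0, although it was below 1 in each of their 3 clusters (0.944 to 0.985). Complex II had ratios at or above 1 in all 5 classes, from 1.03 (0.955 to 1.12) in T cells to 1.21 (1.00 to 1.45) in neutrophils, with intervals that mostly included 1.

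In B cells 1 of 85 members was higher and 5 were lower, against 1.79% higher and 1.37% lower of all genes tested. In T cells 1 of 88 was higher and 6 were lower, against 1.28% and 1.55%. In NK cells or ILC1 0 of 77 were higher and 6 lower, against 5.65% and 4.07%. In monocytes or macrophages 3 of 88 were higher and 1 lower, against 2.55% and 2.73%, and in neutrophils 2 of 73 were higher and 5 lower, against 4% and 6.96%. The share of members past the limit downwards was above that of all genes in B, T and NK cells or ILC1. It was close to it in neutrophils and below it in monocytes or macrophages. With the same cluster weights 3 members were lower in T cells, against 1.34% of all genes. In neutrophils 4 were then higher and 1 lower, against 4.64% and 4.97%. Genes that respond to tissue dissociation moved too, with 9 of 18 higher in NK cells or ILC1, 7 of 19 in T cells, 5 of 19 in neutrophils, 4 of 18 in B cells and 2 of 19 in monocytes or macrophages and at most 2 lower per class, and their part in these results was not tested. Trimmed-mean scaling would shift the log2 of ratios of CPM in this comparison by −0.12 in B cells and −0.11 in monocytes or macrophages, and by less than 0.1 in the other classes.

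Atp5k was lower in TAA+C7.5 in all 5 classes. Atp5k (chr5:108433244-108434448) encodes the small e subunit of the ATP synthase membrane part, which takes part in joining 2 synthases. It was at 159, 219, 115 and 170 CPM in T cells, with a ratio of TAA+C7.5 to TAA of 0.525 (0.475 to 0.581), and at 254, 250, 135 and 198 CPM in NK cells or ILC1. In B cells Atp5k was at 122, 154, 93.0 and 118 CPM. It was at 207, 212, 135 and 232 CPM in monocytes or macrophages. In neutrophils it stood at 75.6, 101, 62.8 and 120 CPM. The TAA+C7.5 library was the lowest of the 4 in each class. With the same weight for each cluster the log2 ratio of Atp5k in neutrophils was −0.52, within the limit.

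Another 3 small members were each lower in TAA+C7.5 in 3 classes. Atp5e was at 441, 601, 385 and 553 CPM in B cells, 629, 799, 515 and 767 CPM in NK cells or ILC1, and 447, 467, 278 and 352 CPM in neutrophils. Atp5mpl (chr12:111961375-111966977), a small protein that associates with the ATP synthase, was at 185, 246, 146 and 210 CPM in B cells and at 279, 324, 192 and 298 CPM in T cells. Ndufa3 (chr7:3617373-3620327), an accessory subunit of complex I, was at 131, 139, 82.1 and 122 CPM in B cells and at 149, 172, 101 and 142 CPM in T cells. In all of these the TAA+C7.5 library was again the lowest. Of the remaining members, Uqcr11 was lower in B and T cells and Uqcr10 in T and NK cells or ILC1. Ndufa1 and Uqcrc2 were lower in NK cells or ILC1, Ndufv3 in T cells, and Ndufb2 and Ndufc1 in neutrophils. Ndufc1 had the lowest log2 ratio of these, −0.89, from 29.0 to 11.1 CPM. Its ratio of CPM, 0.383 (0.169 to 0.761), rests on 9 UMIs in TAA+C7.5. With the same cluster weights Uqcr11, Uqcr10 and Ndufv3 in T cells, Uqcrc2 in NK cells or ILC1, and Atp5e, Atp5mpl and Ndufb2 in neutrophils fell inside the limit.

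The 4 members lower in TAA+C7.5 in 3 or more classes had short transcripts. The annotated length, the median over a gene's protein-coding transcripts, was 321.5 bases for Atp5k, 421 for Atp5e, 433 for Ndufa3 and 489 for Atp5mpl, against a median of 755 for the 93 members with a length and 2638 for all genes with at least 50 UMIs. Of the other lower members, Ndufv3 (645 bases), Ndufc1 (782), Uqcrc2 (1896) and Ndufb2 (2413) were longer. With a limit of 600 bases, set after the values were seen, 28 members were short and 65 were longer. The median log2 ratio of TAA+C7.5 to TAA was −0.20 for short and −0.01 for longer members in B cells, −0.34 and −0.06 in NK cells or ILC1, −0.24 and −0.03 in T cells, 0.01 and 0.17 in monocytes or macrophages, and −0.30 and 0.02 in neutrophils. Other short transcripts showed such a split in every class compared except monocytes or macrophages. Genes outside the members, the ribosomal proteins and the mitochondrial genome had medians of −0.16 and 0.09 in B cells. The values were −0.28 and 0.04 in NK cells or ILC1, −0.18 and 0.02 in T cells, and −0.25 and −0.00 in neutrophils. In monocytes or macrophages they were 0.05 and 0.03. Ndufb1-ps, which the symbol rule leaves out, was at 243, 327, 171 and 285 CPM in T cells. Whether short transcripts were captured or counted differently in that library was not tested.

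**Figure D4:**
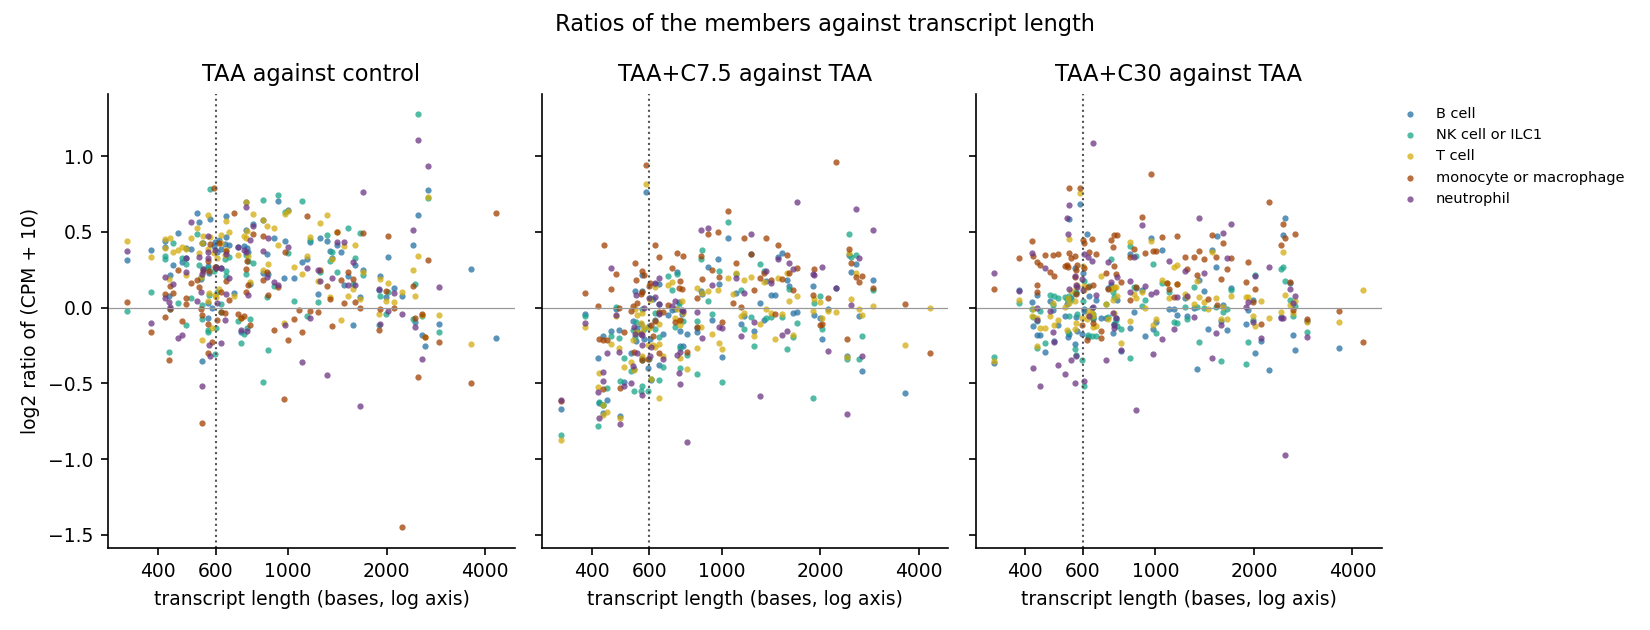
Log2 ratio of (CPM + 10) of each member tested (vertical axis) against its annotated transcript length (bases, log axis) in 3 comparisons, 1 point per member and class; the dotted line marks 600 bases. In TAA+C7.5 against TAA the points of Atp5k, the shortest member at 321.5 bases, lie below 0 in all 5 classes. In monocytes or macrophages 11 of the 27 members under 600 bases lie below 0.

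Among members no such split stood in the other comparisons. In TAA against control, the medians of short and longer members were 0.35 and 0.33 in B cells, 0.10 and 0.18 in NK cells or ILC1, 0.38 and 0.32 in T cells, 0.06 and 0.05 in monocytes or macrophages and 0.18 and 0.18 in neutrophils. In TAA+C30 against TAA, they were −0.06 and −0.02, −0.01 and 0.00, −0.03 and 0.05, 0.28 and 0.27, and 0.11 and 0.07 in the same order. Outside the members, the ribosomal proteins and the mitochondrial genome, short and longer genes did differ in TAA against control. Their medians were 0.26 and −0.10 in B cells, 0.17 and −0.13 in NK cells or ILC1, and 0.27 and −0.10 in T cells. Neutrophils had 0.22 and −0.04, and monocytes or macrophages 0.00 and −0.07. The part of transcript length in the members' medians was not tested.

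A few members were higher in TAA+C7.5 than in TAA. Atp5g2 was so in B cells, T cells and monocytes or macrophages. In B cells Atp5g2 was at 9.27, 9.21, 22.6 and 20.9 CPM, a ratio of TAA+C7.5 to TAA of 2.46 (1.63 to 3.71). In monocytes or macrophages its ratio was 3.04 (2.18 to 4.22). Ndufaf7 (ratio 2.47, 1.95 to 3.12) and Ndufs3, a core subunit of complex I at 47.7, 44.8, 75.1 and 65.5 CPM, were higher in monocytes or macrophages, and Ndufs4 and Atp5a1, the alpha subunit of the ATP synthase, in neutrophils. In NK cells or ILC1 Ndufs3 had the highest log2 ratio, 0.57, within the limit.

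Mitochondrial-genome subunits summed to 0.870 of the TAA share in B cells, 0.897 in NK cells or ILC1, 0.982 in T cells, 0.848 in monocytes or macrophages and 1.30 in neutrophils. Without mt-Nd3 the ratios were 0.935, 0.958, 1.05, 0.899 and 1.36. Usmg5, a further small ATP synthase subunit outside the symbol rule, was lower in all 5 classes, with log2 ratios from −0.70 in monocytes or macrophages to −0.87 in neutrophils. Pet100, an assembly factor of complex IV, was also lower in all 5, from −0.72 in neutrophils to −1.09 in NK cells or ILC1. Tricarboxylic acid cycle genes had medians from −0.08 to 0.12, with 3 higher and 1 lower, all in NK cells or ILC1.

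In TAA+C30 against TAA, among the classes compared, members were more abundant in monocytes or macrophages and nearly level in lymphocytes. Monocytes or macrophages took 1.39%, 1.45%, 1.53% and 1.80% of their UMIs from members, so that TAA+C30 was the highest library, and the ratio of TAA+C30 to TAA was 1.24 (1.23 to 1.25). There 81 of 92 members had a log2 ratio above 0, with a median of 0.28 against −0.04 for all genes tested. The ratio of sums was 1.01 (1.00 to 1.02) in T cells, 0.986 (0.970 to 1.00) in B cells, 0.978 (0.956 to 1.00) in NK cells or ILC1 and 1.00 (0.982 to 1.02) in neutrophils. The members' medians were 0.03, −0.02, −0.00 and 0.07 in these classes, against −0.03, −0.04, −0.06 and −0.27 for all genes.

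Counts past 1.5-fold were small. In monocytes or macrophages 5 of 92 members were higher and 0 lower, against 1.9% higher and 3.23% lower of all genes tested. In B cells 3 of 86 were higher and 0 lower, against 1.25% and 1.38%. In T cells 1 of 88 was higher and 0 lower, against 0.817% and 0.573%, and in NK cells or ILC1 0 of 76 were higher and 0 lower, against 2.11% and 3.79%. In neutrophils 4 of 79 were higher and 2 lower, against 4.93% and 22.4%. The members' share was thus above the background for higher genes in monocytes or macrophages and B cells and close to it in T cells and neutrophils. With the same cluster weights 3 members were higher in monocytes or macrophages and 1 in B cells, against 0.656% and 1.32% of all genes. Neutrophils then had 1 higher and 0 lower, against 1.42% and 3.07%. With trimmed-mean scaling the log2 of neutrophil ratios of CPM would be 0.43 higher. The neutrophil counts would become 21 higher and 1 lower, against 12.4% and 8.44%. Genes that respond to tissue dissociation were higher for 12 of 19 in B cells, 10 of 18 in NK cells or ILC1, 8 of 19 in T cells, 4 of 19 in monocytes or macrophages and 3 of 19 in neutrophils, where 3 were lower, and their part in these results was not tested.

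All complexes contributed to the monocyte or macrophage difference. The ratio of sums was 1.25 for complex I, 1.21 for III, 1.21 for IV and 1.27 (1.26 to 1.29) for V, where 17 of 17 members were above 0, and 1.07 (1.02 to 1.12) for complex II. Assembly factors had 1.34 for complex I and 1.04 (0.948 to 1.15) for complex II. Mitochondrial-genome subunits did not follow, with a ratio of 0.831. Glycolysis genes had a median log2 ratio of 0.38 in the same cells, with 4 of 20 higher, of which Eno1 (enolase) had the highest log2 ratio, 0.83. Tricarboxylic acid cycle genes had a median of 0.13 with none past the limit, and cytosolic ribosomal protein genes a median of 0.31 with 12 of 95 higher.

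Part of this difference went with the mix of clusters. The class held 3 clusters: cluster 14, led by Gpnmb, Trem2 and complement C1q genes, with 28, 645, 144 and 349 cells, cluster 15, led by F13a1 and Chil3, with 72, 324, 241 and 927 cells, and cluster 20, with Ace and Treml4, with 96, 144, 123 and 110 cells. Members took 1.49%, 1.32%, 1.30% and 1.43% of UMIs in cluster 14, 1.58%, 1.81%, 1.79% and 1.97% in cluster 15, and 1.12%, 1.34%, 1.26% and 1.5% in cluster 20. The ratio of TAA+C30 to TAA was 1.08 to 1.12 within the 3 clusters and 1.10 when each cluster was given the same weight. The cluster with the highest share, cluster 15, held the most cells in TAA+C30, while cluster 14 held the most in TAA.

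**Figure D5:**
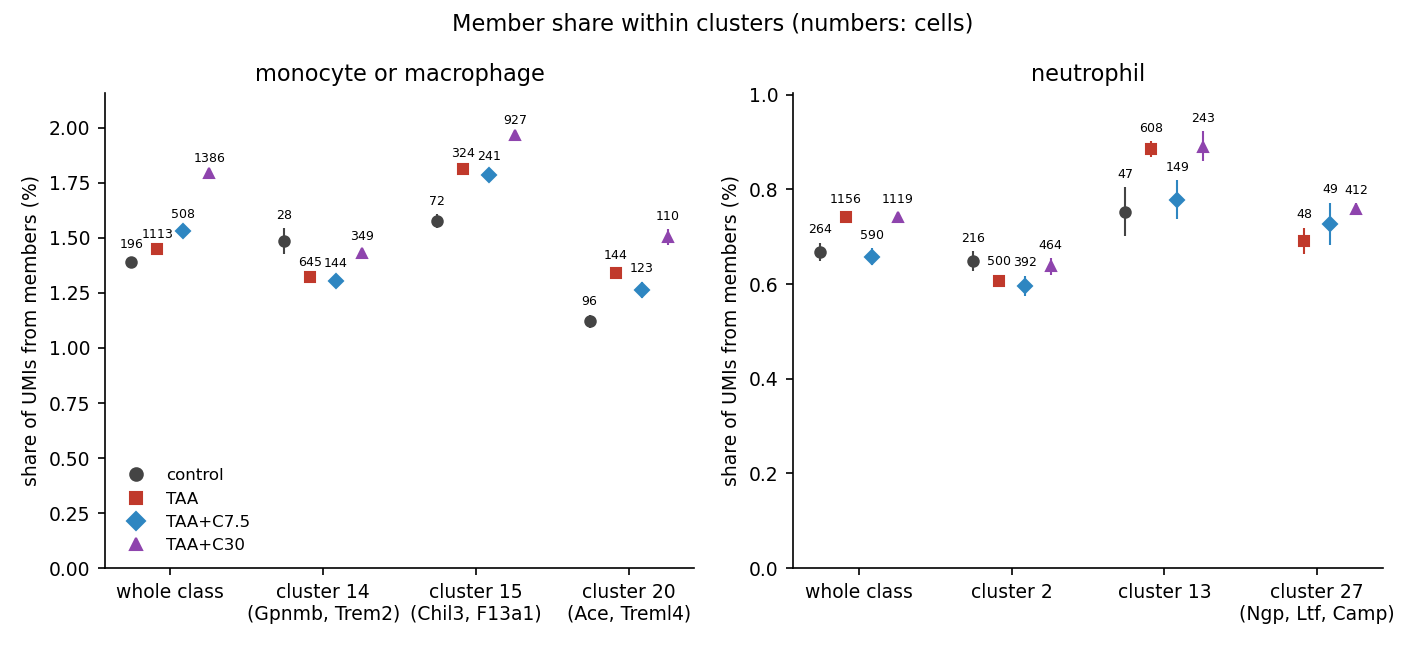
Share of UMIs from members (%, axis from 0) in monocytes or macrophages (left) and neutrophils (right), for the whole class and for each of its clusters, 1 point per library with its exact 95% counting interval and its number of cells. In the 3 monocyte or macrophage clusters the TAA+C30 point stands at 1.08 to 1.12 times the TAA point, against 1.24 times for the whole class.

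The neutrophil ratio depended on what the share was taken of. The 14 neutrophil marker genes took 12.4%, 18.1%, 18.2% and 33.8% of neutrophil UMIs, with 10.4%, 15.2%, 14.1% and 27.1% from S100a8 and S100a9 alone. Of the UMIs left without them, members took 0.763%, 0.905%, 0.804% and 1.12%, so that TAA+C30 became the highest library and its ratio to TAA was 1.24 instead of 1.00. On that scale 15 of 79 members were higher and 1 lower, against 10.1% and 12.2% of all genes. This denominator was chosen after the data were seen. Cluster 27, led by the granule genes Ngp, Ltf and Camp, held 1, 48, 49 and 412 neutrophils, and within the 3 neutrophil clusters the ratio of TAA+C30 to TAA was 1.01 to 1.10.

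Several members that were lowest in the TAA library were higher in TAA+C30. In monocytes or macrophages the ratio of TAA+C30 to TAA was 2.62 (2.12 to 3.25) for Ndufb4, 2.61 (2.05 to 3.35) for Atp5g2, 1.96 (1.65 to 2.33) for Ndufaf7 and 1.81 (1.67 to 1.95) for Atp5l. Ndufb11, a membrane-arm subunit of complex I, was at 153, 137, 196 and 213 CPM there. With the same cluster weights the calls of Ndufaf7, Atp5l and Ndufb11 fell inside the limit. Atp5l was also higher in B cells, at 113, 85.9, 93.4 and 134 CPM, with a log2 ratio of 0.59 that became 0.51 with those weights. Since Ndufaf7, Atp5l and Ndufb4 were lowest in the TAA monocytes or macrophages, they appear both as lower in TAA than in control and as higher in TAA+C30 than in TAA, and the 2 comparisons share that library.

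Sdhaf1 went in opposite directions in 2 classes. In B cells it was at 66.1 CPM in TAA and 105 CPM in TAA+C30, a ratio of 1.58 (1.30 to 1.92), whose log2 on the CPM + 10 scale, 0.59, lay at the limit and was 0.49 with the same cluster weights. In neutrophils Sdhaf1 was at 26.6 CPM in TAA and 8.65 CPM in TAA+C30, a ratio of 0.325 (0.202 to 0.510). Ndufs7, a core subunit of complex I, was also lower in neutrophils, at 40.6, 59.6, 50.5 and 33.6 CPM. The higher members of neutrophils were Ndufv3, an accessory subunit of complex I, at 29.4, 32.0, 38.2 and 79.4 CPM (ratio 2.48, 1.95 to 3.18), Uqcrb at 32.2, 43.3, 30.8 and 70.5 CPM, Uqcrfs1, the Rieske iron-sulphur protein, and Ndufa11. For Ndufv3 and Uqcrb the TAA+C30 library was the highest of the 4. With the same weight for each neutrophil cluster the log2 ratio was −0.12 for Sdhaf1 and 0.45 for Ndufv3, against −0.97 and 1.09 for the whole class. Both calls thus fell inside the limit, and the part of the mix of clusters was not tested. The log2 ratios of Ndufa11 (0.68) and Uqcrb (0.60) became −0.21 and −0.00 in the same way and that of Ndufs7 became −0.35. With these weights Uqcrfs1 (0.63) was the only call left in the class. Its log2 ratio for the whole class, 0.59, lay at the limit. It fell inside the limit under 4 of 10 alternatives, to 0.37 at the lowest. The lowest log2 ratios in the other classes were within the limit, at −0.41 for Ndufaf7 in B cells, −0.52 for Ndufaf8 in NK cells or ILC1, −0.35 for Atp5k in T cells and −0.23 for Sdhaf3 in monocytes or macrophages. The highest in NK cells or ILC1 was 0.41, for Ndufa12, which became −0.06 when cells were averaged one by one.

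Between the 2 celecoxib libraries, which had the same TAA schedule and differed in dose, members made up a larger share in TAA+C30 in most classes. The ratio of TAA+C30 to TAA+C7.5 was 1.2 in cholangiocytes, 1.17 in monocytes or macrophages, 1.13 in T cells and in neutrophils, 1.12 in conventional dendritic cells, 1.11 in NK cells or ILC1, 1.09 in plasmacytoid dendritic cells and 1.07 in B cells. In plasma cells it was 0.938. With 1 mouse per dose, dose and animal cannot be told apart. Short transcripts had lower counts in TAA+C7.5 in some classes, and their part in these ratios was not tested.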

How the data were processed

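The deposited matrices hold whole-number UMI counts per gene and cell barcode, which the authors made with Cell Ranger 3.1.0 on build mm10, per the submitters' processing notes. The gene annotation and the cell-calling settings are not given in the sources used here. All 55450 gene entries were used, and positions and lengths came from GENCODE M21 on GRCm38, the same build.

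Cells with at least 200 genes and at most 20% mitochondrial UMIs were kept, and doublets were removed with Scrublet at an expected rate of 0.05. Clustering (Scanpy 1.11.5, leidenalg 0.10.2; 2000 variable genes, 20 neighbours, resolution 1) left out the members and mitochondrial genes, applied no batch correction since library and group coincide, and gave 28 clusters in 14 named classes; 307 cells stayed unnamed. Counts were summed per class and library. Levels needed 50 cells and comparisons 100. Poisson, Clopper-Pearson and conditional binomial intervals came from SciPy 1.17.1. The scripts were tested on simulated data.

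Named members were all isoforms, the 2 highest per complex, the highest and lowest ratio per class and comparison, and members past the limit in 3 classes; other members past the limit were named after their values were seen. The members and lists were chosen with earlier results of these data known. Alternatives concerned the added CPM, scaling, denominator, cell filters, class assignment, cluster weights, per-cell means and UMI minimum.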

Additional observations from a re-analysis of the deposited data

Results flagged for a closer look

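In TAA+C30 against TAA, the complex II assembly factor Sdhaf1 passed the 1.5-fold limit in opposite directions in 2 classes. Its log2 ratio was 0.59 in B cells and −0.97 in neutrophils. Each value compares 1 mouse with 1 mouse, and the difference between the classes was not tested. The neutrophil marker genes took 18.1% of neutrophil UMIs in TAA and 33.8% in TAA+C30, and their part in the neutrophil value was not tested. With the same weight for each neutrophil cluster the neutrophil value was −0.12. The B cell value lay at the limit, and fell to between 0.49 and the limit under 3 of 10 alternatives: the same cluster weights, classes set by marker score, and means per cell.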

How the results depend on the processing

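Over the 5 classes, TAA against control had 29 pairs of member and class higher and 4 lower. The higher count became 46 with 1 CPM added, 86 with trimmed-mean scaling, where the lower count was 1, and 47 without mitochondrial, ribosomal protein, haemoglobin and immunoglobulin genes in the denominator. In TAA+C7.5 against TAA, 7 pairs were higher and 23 lower; the higher count became 11 with 1 CPM added and 11 with the same weight for each cluster. In TAA+C30 against TAA, 13 were higher and 2 lower. These counts became 23 and 7 with 1 CPM added, 31 and 1 with trimmed-mean scaling, and 6 and 0 with the same cluster weights, and the higher count became 8 with means per cell. With 1 CPM added or trimmed-mean scaling, the share of all genes higher rose in every class, here and in TAA against control. The other 47 of 60 counts stayed within 1.5 times the value reported. Of 480 recomputed ratios of members named by rule, 458 kept their direction and side of the limit, 15 fell inside it, 6 passed it, 1 without a call changed sign (Ndufa12 in NK cells or ILC1, TAA+C30 against TAA) and 0 calls reversed. Among these, beside those named with their results, calls fell inside the limit for Uqcrc1 in neutrophils (−0.51 with trimmed-mean scaling, −0.58 without the mitochondrial filter) and Ndufa5 in monocytes or macrophages (0.47 with the same cluster weights) for TAA against control. For TAA+C7.5 against TAA they did so for Atp5e (−0.54) and Ndufa3 (−0.58) in NK cells or ILC1 with classes set by marker score, and in neutrophils Atp5e (−0.58) and Atp5mpl (−0.47) with the same cluster weights and Ndufs4 (0.48) with means per cell. Among all calls, the same cluster weights turned the sign of Ndufa11 (−0.21) and Uqcrb (−0.00) in neutrophils for TAA+C30 against TAA. For TAA against control they took the higher members from 7 to 2 in T cells and from 4 to 0 in monocytes or macrophages. The share of all genes higher went from 3.07% to 2.76% and from 8.46% to 4.68% in the same 2 classes. Of 150 class medians 7 changed sign: 2 for neutrophils in TAA+C7.5 against TAA, and 5 in TAA+C30 against TAA, 4 for NK cells or ILC1 and 1 for neutrophils. No paired analysis was possible because each group has 1 library, and for the same reason no library could be left out. The TAA+C7.5 library, at 17888247 UMIs, had the least depth, and members with few UMIs in neutrophils and NK cells or ILC1 had the widest intervals.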
